A study of Drosophila melanogaster with 12 samples.

Results

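The comparison described here is the interaction between genotype and lithium in heads of the fly Drosophila melanogaster. It asks, transcript by transcript, whether 50 mM lithium shifted the mutant Shu by the same amount as it shifted the wild type CS. All 12 of the 12 arrays in the study enter it, assigned by the group in each array's title, with 3 arrays in each of 4 groups. CS_0 is the wild type with no drug and CS_50 the wild type given 50 mM lithium. Shu_0 is the mutant with no drug and Shu_50 the mutant at 50 mM, a dose whose drug is named in the title of the series but not on those samples. Every array holds RNA of whole heads and carries the same acclimatization tag. Sex, age, length of exposure, genetic background and the fed medium are not given, and nothing states that the 3 arrays of a group come from separate cultures. The p-values below therefore measure the spread between these arrays, which may be technical. In RNA from whole heads, fewer cells of a type and less RNA per cell cannot be told apart.

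Shudderer is entered in the gene annotation under para, which encodes the voltage-gated sodium channel that carries the action potential in fly neurons. Shudderer flies are known for tremor and seizure-like behaviour that lithium lessens, so a transcript that lithium moves differently in the mutant is the kind this contrast was built to find. Lithium is known to inhibit glycogen synthase kinase 3, the product of sgg, and inositol monophosphatase, and in fly heads it is known to induce List, a transporter of the family that carries neurotransmitters and amino acids.

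Signals are the deposited probe set intensities, and 11261 probe sets bright enough to test stood for 8612 named genes. Differences are on the log2(signal + 6.26) scale, which understates those of dim probe sets. The interaction is the lithium difference in Shu minus the lithium difference in CS, so a value of 1 means that the ratio of lithium to untreated signal was 2-fold larger in the mutant. Values after ± are standard errors from limma with n = 3 arrays per group. A difference counts as called where its limma p, adjusted by Benjamini-Hochberg over the 11261 tests, was under 0.05. All 12 photoreceptor markers and all 11 neuron markers passed the brightness filter on at least 1 array. Replicates of a group correlated at 0.985 to 0.989. The first principal component held 18.1% of the variance, and the extremes on it were CS_0 replicate 3 at -20.5 and Shu_0 replicate 1 at 17.9, beside -8.61 to 11.5 in the other arrays.

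A difference between the genotypes in the response to lithium was called for 1 probe set, higher in the mutant, which is 0.00888% of those tested, and for 0 (0%) in the other direction. That probe set names no gene here. Among named genes the nearest to a call were the mitochondrial carrier family member CG8323, the actin gene Act87E, the sterol acyltransferase family gene CG8112 and the activity-regulated gene Arc1, none of which passed the limma test after adjustment. At an unadjusted p under 0.05 there were 758 probe sets (6.73%), of which 331 lay above 0 (2.94%) and 427 below (3.79%). The next 3 adjusted p-values after the called one were 0.0613, 0.154 and 0.197. Over all probe sets 47% lay above 0, the median was -0.01, and the middle 50% ran from -0.15 to 0.11. Of the 758, 615 (81.1%) had lithium differences of opposite sign in the genotypes, beside 41.9% of all probe sets, as low p-values of this contrast favour such patterns.

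The design measured this contrast less finely than a simple lithium difference. The median standard error was 0.168 for the interaction, beside 0.119 for lithium in the wild type. The 95% interval reached a median of 0.356 to either side, from 0.197 at the 10th to 0.848 at the 90th percentile of probe sets. For 9461 probe sets (84.0%) the whole interval lay between -1 and 1, so a 2-fold difference between the genotypes in response to lithium was outside it. For 5500 (48.8%) it lay between -0.5 and 0.5. The other probe sets had wider intervals or larger estimates.

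**Figure D1:**
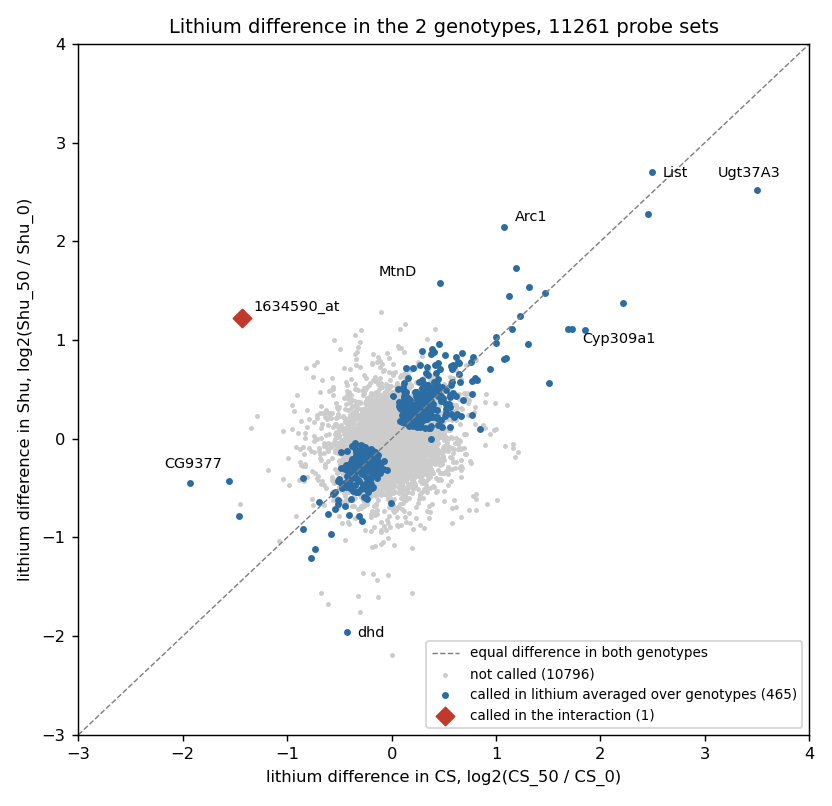
Lithium difference in CS (x axis) against that in Shu (y axis), both in log2 units, for the 11261 probe sets, with the dashed line at equal differences. The 465 probe sets called for lithium averaged over the genotypes (blue) lie along the line in the upper right and lower left, and 1634590_at (red diamond) lies in the upper left, at -1.43 in CS and 1.23 in Shu.

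The called probe set, 1634590_at, went opposite ways in the genotypes. In the wild type its signal was 45.0, 18.3 and 43.0 without the drug and 9.10, 8.39 and 7.78 on lithium. In the mutant it was 11.2, 6.77 and 8.23 without the drug and 27.5, 33.7 and 25.1 on lithium. The untreated wild type and the treated mutant were thus the bright groups, and neither pair of groups overlapped. The lithium difference was -1.43 ± 0.28 in CS and 1.23 ± 0.28 in Shu, and both passed the test (limma adjusted p = 0.0122 and 0.0262). The interaction was 2.66 ± 0.39 (adjusted p = 0.0416), with a 95% interval from 1.83 to 3.48. All of these signals are dim, with a group mean of at most 35.4 beside array medians of 23.9 to 25.8. The low groups, with means of 8.42 (CS_50) and 8.75 (Shu_0), lie below the brightness filter of 11.5, so the probe set was tested through its brighter groups, and the size and interval depend on the offset. It stayed above 2 under all 21 alternatives in which it could be tested (2.10 to 3.71), but its adjusted p ranged from 0.00206 to 0.252 and 15 of the 21 ended the call. Lithium was called for 182 probe sets in CS (1.62%) and 209 in Shu (1.86%), and of the 99 called in both this was the one with opposite signs.

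CG8323 (probe set 1633690_at, 2R:14165051-14166991, genome release 6) showed the same crossing at a brighter level. In CS it read 121, 117 and 143 without lithium and 176, 169 and 151 with it. In Shu it read 152, 182 and 169 without lithium and 119, 110 and 121 with it. Lithium arrays were all above the untreated ones in the wild type and all below them in the mutant. The fall in the mutant passed the test (-0.50 ± 0.10, limma adjusted p = 0.00991) and the difference of 0.37 in the wild type did not (adjusted p = 0.0788). The interaction was -0.87 ± 0.14, with an interval from -1.16 to -0.57 and an adjusted p of 0.0613. Without CS_0 replicate 3 the value was -0.95 and the adjusted p 0.0397, and over the 22 alternatives the value ranged from -1.02 to -0.81.

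Act87E (1636348_s_at, 3R:13425983-13428375), one of the fly's actin genes, responded in the mutant alone by the lithium tests. Its signal was 3294, 3016 and 3214 in CS_0 and 3342, 3220 and 3360 in CS_50. It was 2726, 2751 and 2848 in Shu_0 and 4105, 3984 and 3701 in Shu_50. The mutant was the lowest group without lithium and the highest with it, while the wild type arrays overlapped. It rose by 0.50 in Shu (limma adjusted p = 6.7e-05) and stood at 0.06 in CS. The interaction was 0.44 ± 0.08 and was not called (adjusted p = 0.154).

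CG8112 (1636353_s_at, 3R:8712933-8715263), a gene of the family that esterifies sterols, rose with lithium in both genotypes. Untreated signals were 645, 567 and 613 in CS and 617, 664 and 680 in Shu. On lithium they were 805, 751 and 839 in CS and 1345, 1182 and 1182 in Shu. All 3 treated mutant arrays exceeded all 3 treated wild type arrays, whereas the untreated groups overlapped. The rise was 0.39 in CS and 0.91 in Shu (limma adjusted p = 0.0067 and 1.1e-06), and their difference of 0.52 ± 0.10 was not called (adjusted p = 0.197).

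Arc1 (2R:14357927-14360297) encodes a retrovirus-like capsid protein that carries its own RNA between neurons and muscle, and its transcript follows neuronal activity. Probe set 1639694_s_at read 342, 304 and 266 in CS_0 and 513, 583 and 903 in CS_50. It read 341, 268 and 319 in Shu_0 and 1499, 1224 and 1453 in Shu_50. The untreated groups lay on top of each other, and every treated mutant array exceeded every treated wild type array. Arc1 rose by 1.08 ± 0.16 in CS and by 2.15 ± 0.16 in Shu, and the difference between these rises was 1.07 ± 0.22 (interval 0.60 to 1.53), which was not called (limma adjusted p = 0.389). Without CS_50 replicate 3, the brightest wild type array, the interaction was 1.31 with an adjusted p of 0.00498. The second Arc1 probe set, 1639180_at, gave a smaller difference, at 0.54 ± 0.18, with rises of 1.19 in CS and 1.73 in Shu.

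Among the 24 named genes of lowest interaction p, 9 lay above 0 and 15 below, and apart from those above all had adjusted p-values of 0.428 or more by limma. For 11 of the 24 the lithium arrays stood clear of the untreated ones in both genotypes in opposite directions, beside 0.622% of all probe sets, and for 2 in the same direction, beside 4.08%. For 5 they stood clear in CS alone and for 6 in Shu alone. Over all probe sets they stood clear in 19.1% for CS and 15.8% for Shu. These shares include probe sets clear in both genotypes, so they are larger than those for 1 genotype alone. Since low interaction p-values choose such patterns, these counts describe the list and nothing is read from them. CAH9, a carbonic anhydrase, read 144, 138 and 132 in Shu_0 and 91.3, 74.0 and 92.1 in Shu_50, beside 104 to 116 in the 6 wild type arrays. It fell in the mutant (-0.65, limma adjusted p = 0.0012), with an interaction of -0.65 ± 0.14. Jabba, which anchors histones on lipid droplets, read 205, 184 and 180 in Shu_0 and 111, 139 and 138 in Shu_50, beside 144 to 170 in the wild type arrays. Its interaction was -0.60 ± 0.14 in that probe set and 0.07 ± 0.15 in its other one, so the probe sets of Jabba disagree.

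Vha100-1, a membrane subunit of the proton pump of synaptic vesicles, moved in the wild type alone by the lithium tests. It read 736, 755 and 752 in CS_0 and 968, 971 and 986 in CS_50. In the mutant it read 903, 925 and 917 without lithium and 867, 1028 and 852 with it. The treated wild type thus came to lie with both mutant groups. It rose by 0.38 in CS (limma adjusted p = 0.0042) and stood at 0.00 in Shu, with an interaction of -0.38 ± 0.09 (adjusted p = 0.647). A like shape belonged to CysRS, the cysteine tRNA ligase, which read 75.3, 75.7 and 73.4 in CS_0 and 92.9 to 130 in the other wild type arrays. Its 6 mutant arrays read 98.4 to 114, and its interaction was -0.61 ± 0.15. CysRS rose in the wild type (0.53, adjusted p = 0.021), and the lithium difference in the mutant was -0.08.

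Another shape had the untreated wild type above the other groups. IA-2, a tyrosine phosphatase-like protein of dense core vesicles, read 5286, 5153 and 5874 in CS_0 and 4373 to 4800 in the 9 other arrays. Its interaction was 0.31 ± 0.08, and -0.31 ± 0.21 in its other, dimmer probe set. Prm, the paramyosin of muscle, read 5812, 5555 and 6050 in CS_0 and 4124 to 5239 elsewhere (0.38 ± 0.10, with 0.02 ± 0.07 in its other probe set). Oda, an ornithine decarboxylase antizyme, read 5401, 5222 and 5868 in CS_0 and 4544 to 4932 elsewhere (0.30 ± 0.08), and Mob2, a kinase cofactor, 2562, 2499 and 2754 against 1954 to 2390 (0.32 ± 0.09). Under quantile normalization IA-2 stood at 0.21 and Oda at 0.19. In each of these 4 genes CS_0 replicate 3 was the highest of the 12 arrays. The array's control probe sets for eIF-4a, which compare the 3′ with the 5′ end of the transcript as a sign of RNA integrity, had their highest log2 ratio in the same array (2.96). Their group means were 2.77 in CS_0, 2.48 in CS_50, 2.54 in Shu_0 and 2.53 in Shu_50, an interaction of 0.29, whereas those for GAPDH had an interaction of -0.01 and those for actin 0.19. Whether this bears on genes with the untreated wild type apart was not tested.

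**Figure D2:**
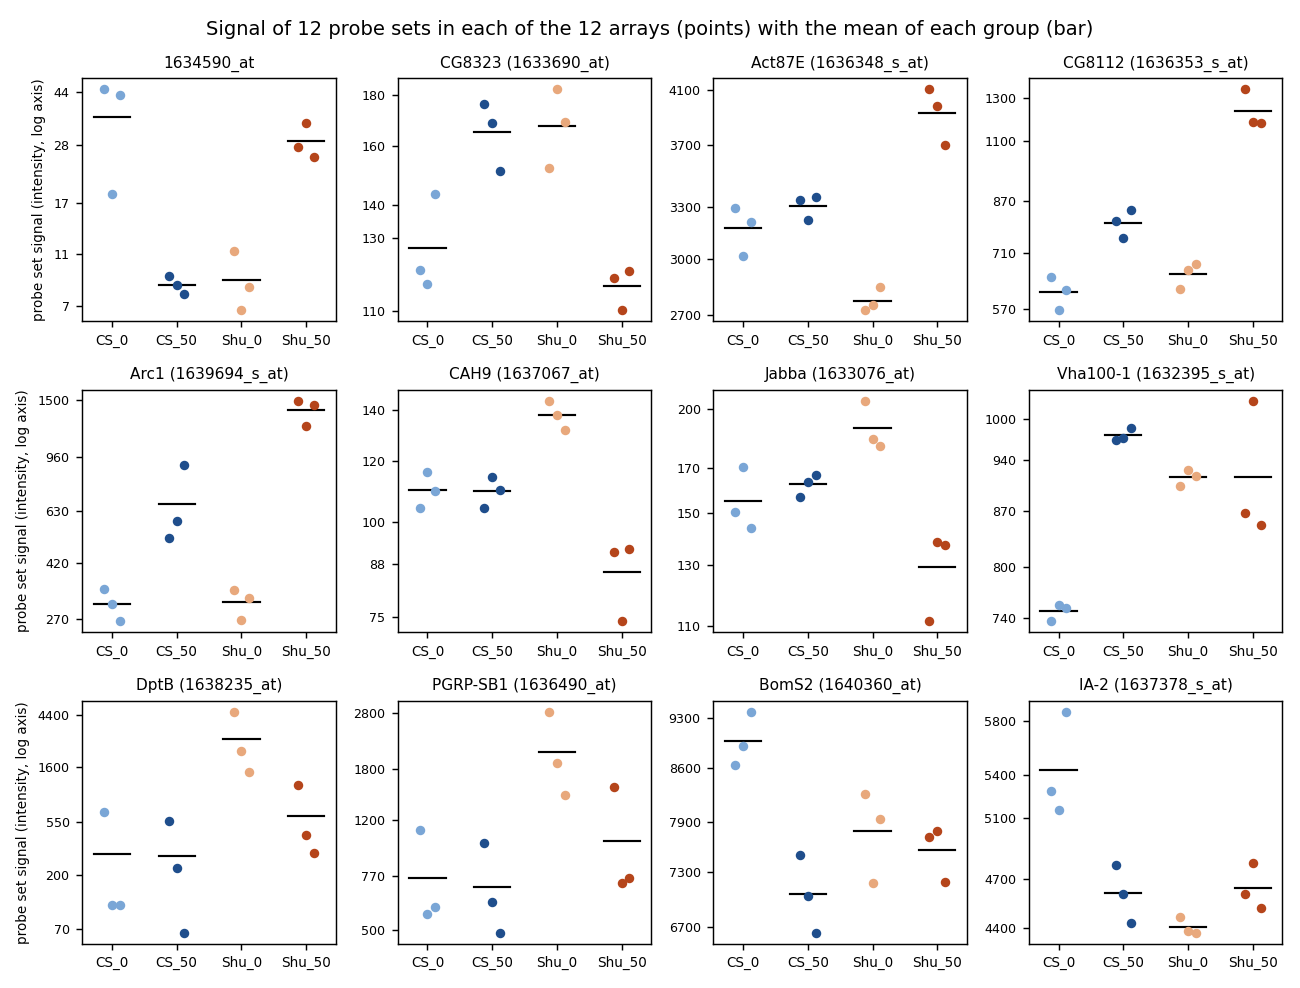
Signal (log axis, intensity units) of 12 probe sets in each array (points, left to right replicates 1 to 3), with bars at the group means. 1634590_at and CG8323 cross over, Act87E, CG8112 and Arc1 are highest in Shu_50, CAH9 and Jabba are lowest there, Vha100-1 is lowest in CS_0 and IA-2 highest there, and DptB and PGRP-SB1 are highest in Shu_0.

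Across the 758 probe sets with an unadjusted interaction p under 0.05, an untreated group most often stood apart. For each probe set the group farthest from the mean of the other 3 was taken. It was CS_0 in 291 (38.4%) and Shu_0 in 250 (33.0%), beside CS_50 in 108 (14.2%) and Shu_50 in 109 (14.4%). Over all 11261 probe sets the shares were 29.6%, 27.7%, 21.4% and 21.3%. An untreated group was thus farthest in 71.4% of the 758 and in 57.3% of all. Without CS_0 replicate 3 and Shu_0 replicate 1 the shares were 69.7% of 595 and 56.4%, with fewer arrays behind the untreated means. Among the 331 above 0, CS_0 stood above the rest in 133 and Shu_0 below it in 120. Among the 427 below 0, CS_0 stood below in 158 and Shu_0 above in 130. The sign of the interaction fixes the side on which the farthest group lies, so nothing is read from these directions.

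For transcripts that lithium moved on average over the genotypes, the differences in CS and in Shu were set side by side. Averaged over genotypes, lithium was called for 465 probe sets (4.13%), 269 higher (2.39%) and 196 lower (1.74%). The estimate of this contrast is independent of that of the interaction in a balanced design with equal spread. Of the 465, 464 had the same sign in CS and in Shu. Opposite responses cancel in the average, so the choice of these probe sets largely fixes that count, and 1634590_at (averaged difference -0.10) and CG8323 (-0.07) are not among them. Among them 0 had a called interaction by limma, with 75 (16.1%) at an unadjusted p under 0.05. Both tests use 1 estimate of spread, so calling for lithium favours probe sets of small spread and with them low interaction p-values. In 130 of the 465 called for lithium the 95% interval of the interaction excluded a difference as large as the lithium effect itself. For 343 the interval lay between -0.5 and 0.5 and for 447 between -1 and 1.

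The median sizes were close as well. The 269 rises had a median of 0.32 in CS and 0.34 in Shu, and 160 of them (59.5%) were larger in Shu. At an unadjusted p under 0.05, 34 were larger in the mutant and 15 smaller. The 196 falls had a median size of 0.28 in CS and 0.27 in Shu, and 96 (49.0%) were larger in Shu. Among the 21 probe sets that lithium moved over 2-fold the median size was 1.46 in CS and 1.38 in Shu. Of these, 10 were larger and 11 smaller in Shu. At an unadjusted interaction p under 0.05 stood 11 of the 21 (52.4%), 4 larger and 7 smaller in Shu, beside 6.73% of all probe sets. For only 10 of the 21 the interval lay between -1 and 1, so close medians do not mean close sizes in each gene. Of the probe sets called in 1 genotype alone, 74 of 83 called in CS and 103 of 110 called in Shu had the same sign in the other genotype. None of either set had a called interaction by limma, and 34 (41.0%) and 51 (46.4%) had an unadjusted p under 0.05, beside 17 of the 99 called in both. These sets were chosen by the differences that make up the contrast, so their shares are a description.

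List, the lithium-inducible transporter (1636594_at, 2R:18727817-18730281), gave a narrow interval beside a large rise. Its signal was 104, 131 and 99.3 in CS_0 and 622, 658 and 672 in CS_50. In the mutant it was 101, 108 and 104 without lithium and 693, 752 and 700 with it. The untreated groups overlapped, and all treated mutant arrays lay above all treated wild type arrays by a small margin. The interaction was 0.21 ± 0.12, with an interval from -0.05 to 0.48, against rises of 2.49 and 2.70, and it was 0.10 without CS_0 replicate 2. A second probe set gave -0.17 ± 0.17 with rises of 2.45 and 2.28, so the sign of the difference was not the same in both.

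Ugt37A3, a UDP-glycosyltransferase, had the largest averaged rise of the 11261 probe sets and a wide interval. It read 97.5, 79.1 and 98.1 in CS_0 and 523, 1088 and 2302 in CS_50. In Shu it read 52.0, 50.0 and 49.0 without lithium and 156, 667 and 307 with it. The treated arrays spread over more than 4-fold in each genotype. Rises of 3.50 and 2.52 gave an interaction of -0.98 ± 0.61, with an interval from -2.26 to 0.31. Leaving out 1 treated array moved it to between -1.51 (CS_50 replicate 1) and -0.45 (CS_50 replicate 3).

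Nmdmc encodes a folate enzyme of mitochondria, and its rise was 1.47 in CS and 1.48 in Shu, an interaction of 0.00 ± 0.24 whose interval ran from -0.51 to 0.52. It read 243, 277 and 235 in CS_0 and 335, 400 and 500 in Shu_0. On lithium it read 536, 770 and 858 in CS and 1065, 947 and 1478 in Shu. The mutant arrays lay above the wild type arrays in both conditions, by 0.68 without lithium and 0.69 with it. CG7763, a C-type lectin family gene, rose by 1.31 and 1.53 (0.22 ± 0.21), and Bcat, the transaminase that starts the breakdown of branched-chain amino acids, by 1.12 and 1.45 (0.33 ± 0.18). Smaller rises in the mutant were measured for the cytochrome P450 Cyp309a1, 1.72 against 1.11 (-0.61 ± 0.23), and for CG15784, 1.69 against 1.11 (-0.58 ± 0.25). None of these differences was called (limma adjusted p of 0.705 or more). Leaving out 1 array moved CG15784 to -0.32 (CS_50 replicate 3), Bcat to 0.17 (Shu_50 replicate 3) and CG7763 to between 0.04 and 0.37.

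CG9377 and dhd were the named genes that lithium lowered most on average. CG9377, of the serine protease family, read 61.3, 69.7 and 78.1 in CS_0 and 5.01 to 26.1 in CS_50. In Shu it was near the bottom of the scale in both conditions, at 2.20 to 16.3 and 1.92 to 3.36. With little signal left in the mutant, its interaction of 1.49 ± 0.55 compares a fall with a gene already low. Its mutant means, 7.22 in Shu_0 and 2.69 in Shu_50, lie below the brightness filter of 11.5. CG9377 was thus tested through its wild type groups, and the size depends on the offset. The thioredoxin dhd, known from the female germline, read 23.5, 80.4 and 43.4 in Shu_0 and 4.35, 7.49 and 8.70 in Shu_50, beside 7.31, 42.8 and 11.6 in CS_0 and 8.37 to 13.1 in CS_50. It fell in the mutant (-1.96, limma adjusted p = 0.0197), and its interaction was -1.53 ± 0.60 (adjusted p = 0.712). Its means on lithium, 10.8 in CS_50 and 6.85 in Shu_50, lie below the brightness filter of 11.5. The gene was thus tested through its brighter untreated groups, and these sizes are not well determined. The 15 ovary and chorion markers on the array, dhd among them and 2 of them never above the filter, summed to 501 in Shu_0 replicate 2 and 433 in CS_0 replicate 2, the arrays in which dhd was highest within its genotype's untreated group. Their sums were 118 to 265 in the other untreated arrays and 132 to 191 in the 6 treated ones, and their part in the result was not tested. The 13 gut markers likewise summed to 735 in Shu_0 replicate 2 and to 94.2 to 162 in the other 11 arrays. The glial surface protein gene wrapper fell in the wild type from signals of 109 to 132 to signals of 59.9 to 69.5 (-0.85, adjusted p = 0.00022). In the mutant it read 115 to 124 without lithium and 84.2 to 97.2 with it (-0.40, adjusted p = 0.066), an interaction of 0.45 ± 0.15.

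**Figure D3:**
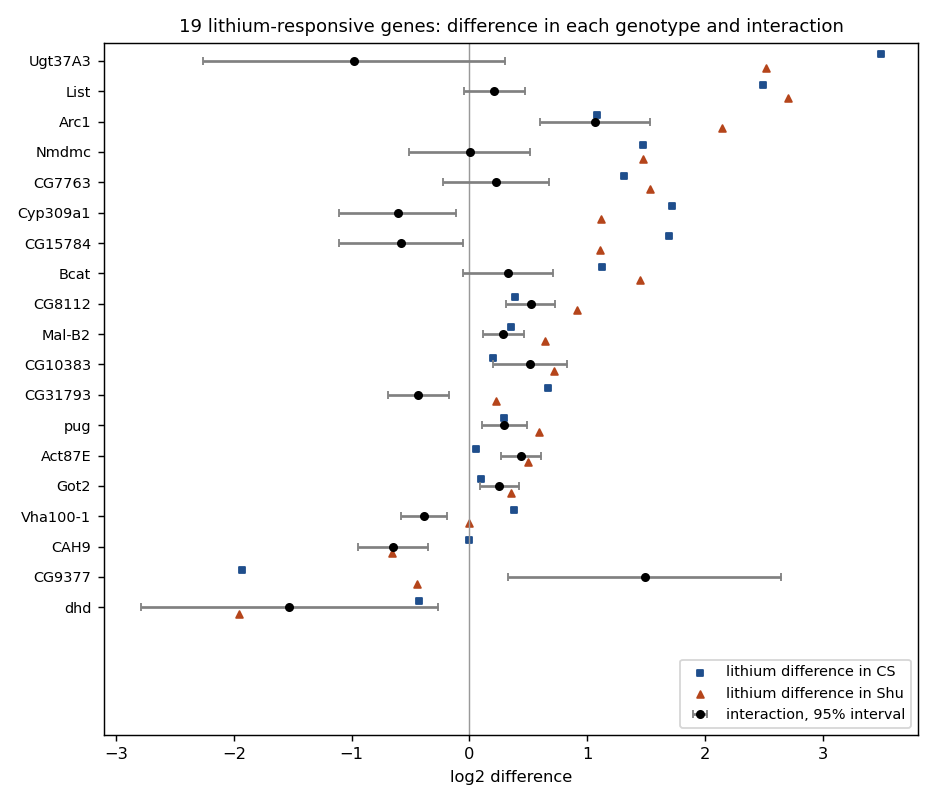
Log2 lithium difference in CS (squares) and in Shu (triangles) and their difference, the interaction (circles with 95% intervals), for 19 genes called for lithium averaged over the genotypes. The interval of List is narrow and spans 0, from -0.05 to 0.48, that of Arc1 lies above 0, from 0.60 to 1.53, and those of Ugt37A3, CG9377 and dhd are the widest.

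Read the other way, the interaction is the change in the genotype difference under lithium. The mutant and the wild type lay closer together on lithium for most transcripts that distinguish them. Averaged over treatments, the genotype difference was called for 892 probe sets (7.92%), 383 higher (3.4%) and 509 lower (4.52%) in Shu. In 636 of them (71.3%) the difference was smaller on lithium, and in 256 it was larger. Its median size went from 0.33 without lithium to 0.23 with it. The share was 76.4% among the 509 lower in the mutant and 64.5% among the 383 higher. Among the 10369 probe sets not called for genotype, the averaged genotype difference was smaller on lithium in 56.1%. Of the 892, 124 had an unadjusted interaction p under 0.05, 115 narrower and 9 wider, and 0 were called by limma. Of the 10369 not called for genotype, 634 had such a p, 426 narrower and 208 wider, so the lean to narrowing was not confined to the 892.

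The narrowing and the genotype calls were recomputed with arrays left out, among them those far out on the first principal component. The choice of the 892 is independent of the sign of the interaction only if the groups have equal spread. It also favours probe sets of small spread, and with them low interaction p-values. The median SD within a group over the 892 was 0.103 in CS_0 and 0.105 in Shu_0, beside 0.083 in CS_50 and 0.093 in Shu_50. Without CS_0 replicate 3 and Shu_0 replicate 1, 332 probe sets were called and 213 of them (64.2%) narrowed, with median sizes of 0.36 and 0.29. Genotype calls numbered 571 without lithium (5.07%) and 57 on lithium (0.506%), but 31 and 68 once those 2 arrays were left out. Without CS_0 replicate 3 alone there were 154 and 69, and without Shu_0 replicate 1 alone 130 and 51. Without Shu_0 replicate 3 alone, which at 11.5 was the farthest out of the other arrays, there were 261 and 48. Without any other single untreated array there were 419 to 694 and 57 to 62. Leaving out untreated arrays also leaves fewer arrays behind the untreated comparison than behind the one on lithium. With 1 untreated array left out each time, the count without lithium ran from 130 to 694, so it depends on which arrays enter. In the fit without both arrays, fewer arrays and unusual arrays cannot be told apart. The share that narrowed was between 64.2% and 80.6% over all 22 alternatives. With 1 array left out it was lowest without a treated array, Shu_50 replicate 3 (566 of 870, 65.1%). It was highest without Shu_0 replicate 2 (860 of 1067, 80.6%). What sets the share was not tested.

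**Figure D4:**
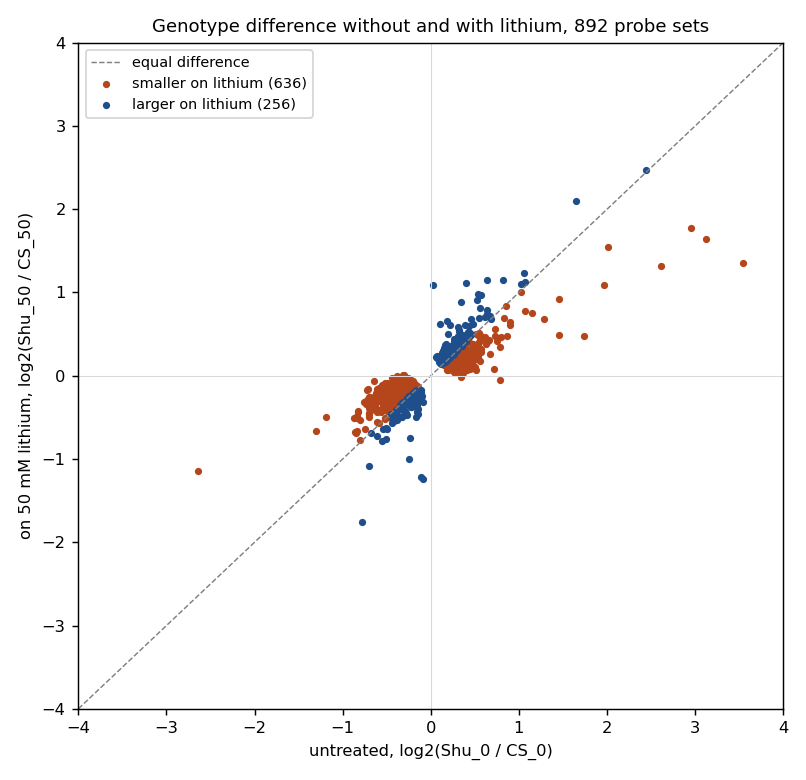
Genotype difference without lithium (x axis) against that on 50 mM lithium (y axis), both log2 of Shu over CS, for the 892 probe sets called for genotype averaged over treatments. Orange points (636) lie closer to 0 on lithium than without it and blue points (256) farther, and the cloud is flatter than the dashed line of equal differences.

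The lists of genes by function held 0 called members in any of the 37, by limma, so they are described by their counts at an unadjusted p under 0.05 and by their medians, beside 2.94% above 0, 3.79% below 0 and a median of -0.01 over all probe sets. Each gene enters through its brightest probe set.

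The sodium channel gene itself had an interaction near 0. Probe set 1627300_at of para (X:16455027-16533096) read 72.6, 77.9 and 70.1 in CS_0 and 80.7, 87.4 and 85.8 in CS_50. It read 87.1, 99.9 and 82.8 in Shu_0 and 118, 102 and 107 in Shu_50. In each condition every mutant array lay above every wild type array, by a fitted 0.27 without lithium and 0.34 with it. Neither of these differences was called (limma adjusted p = 0.156 and 0.18). The genotype difference averaged over treatments was called (0.31, adjusted p = 0.0175). The interaction was 0.08 ± 0.15, with an interval from -0.23 to 0.39 and values of 0.02 to 0.15 over the alternatives. An array probe set of a gene with many spliced forms says nothing of which forms changed. Of the 11 tested members of the sodium channel list, 9 lay above 0, with a median of 0.16, the highest median of the lists with 5 or more members. It stayed between 0.09 and 0.16 over the alternatives. Only pum, a translational repressor that binds para RNA, had an unadjusted p under 0.05 (0.19 ± 0.09), and its other probe set gave -0.03. The auxiliary subunit gene tipE read 210, 216 and 246 in CS_0 and 137, 176 and 141 in Shu_0, and 177 to 204 and 131 to 182 on lithium. Its interaction was 0.28 ± 0.17. Of 13 sodium pump and ion cotransporter genes 2 lay above 0 and 1 below at an unadjusted p under 0.05, the latter being the sodium-proton exchanger gene Nhe1 (-0.37 ± 0.14). The pump subunit genes nrv3 (0.30 ± 0.09) and nrv2 (0.36 ± 0.13) had their highest group mean in CS_0, at up to 7264 and 2941 in CS_0 replicate 3. Of 32 potassium, calcium and chloride channel genes 0 lay above and 1 below at an unadjusted p under 0.05, with a median of 0.01.

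Genes around the known targets of lithium fell evenly on both sides of 0. The list of Wnt pathway, sgg and inositol enzyme genes had 16 tested members, 8 above 0 and 8 below, with a median of -0.01. At an unadjusted p under 0.05 stood the casein kinase gene CkIalpha (0.34 ± 0.14) and the inositol polyphosphate phosphatase gene Ipp (-0.17 ± 0.07). Of the 14 activity-regulated genes 8 lay above 0 and 6 below. At an unadjusted p under 0.05, Arc1 (0.54 ± 0.18) and the Fos gene kay (0.33 ± 0.15) lay above 0 and the Jun gene Jra below it (-0.41 ± 0.11). Without CS_0 replicate 3 and Shu_0 replicate 1 kay stood at 0.20. Jra read 180, 159 and 156 in CS_0 and 204, 203 and 222 in Shu_0, and 184 to 202 and 174 to 190 on lithium. The Fos and Jun genes, whose products pair in 1 transcription factor, thus had opposite signs, and the list median was 0.06.

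Several lists had more members above 0 than the 47% of all probe sets, among them muscle markers, carbohydrate metabolism and amino acid breakdown. Oxidative phosphorylation, another list of energy metabolism, did not, with 20 of 54 genes above 0. Lipid storage and ketone body enzymes were nearly even, with 10 of 19 genes above 0 and 9 below. Of 16 muscle markers 14 lay above 0, with a median of 0.11, and 3 of these had an unadjusted p under 0.05. Beside Act87E these were TpnC41C, a troponin C, which read 2513 to 2538 in CS_0, 2843 to 3064 in CS_50, 2292 to 2426 in Shu_0 and 3061 to 3319 in Shu_50 (0.20 ± 0.07), and up, a troponin T (0.26 ± 0.11). TpnC41C rose in both genotypes, by 0.23 and 0.44. The summed muscle signal was 37486 to 40600 in the wild type arrays and 37603 to 39748 in Shu_0, and 40146 to 43078 in Shu_50. With quantile normalization the median was 0.05. Whether the share of muscle in the heads moved with the groups was not tested.

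Of 27 genes of carbohydrate metabolism 22 lay above 0, with a median of 0.10 that was 0.04 under quantile normalization, and 5 had an unadjusted p under 0.05, all above 0. The maltase gene Mal-B2 read 1106, 1007 and 996 in CS_0 and 1325, 1326 and 1319 in CS_50. It read 971, 1003 and 1078 in Shu_0 and 1645, 1545 and 1579 in Shu_50. The untreated groups overlapped and the treated ones did not, with rises of 0.35 and 0.64 that both passed the test and an interaction of 0.29 ± 0.08. Pepck1, which makes phosphoenolpyruvate for glucose synthesis, read 1893, 2039 and 2754 in Shu_0 and 3040 to 3957 in the 6 wild type arrays, with 3064 to 3851 in Shu_50. Its interaction was 0.46 ± 0.17. The others were the hexokinase gene Hex-C (0.30 ± 0.10), the aldolase gene Ald1 (0.35 ± 0.13, with 0.10 ± 0.09 in its other probe set) and Tpi (0.17 ± 0.08).

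In amino acid breakdown 20 of 25 genes lay above 0, with a median of 0.07, and 4 had an unadjusted p under 0.05. The aspartate transaminase gene Got2 read 5208, 4641 and 4868 in CS_0 and 5293, 5150 and 5285 in CS_50. It read 4796, 4547 and 4907 in Shu_0 and 6063, 6120 and 6006 in Shu_50. The treated mutant stood clear of the other 3 groups, with a rise of 0.35 that passed the test in Shu, 0.10 in CS and an interaction of 0.26 ± 0.08, which was 0.13 under quantile normalization. Its cytosolic counterpart Got1 (0.30 ± 0.10), the tyrosine breakdown gene Hpd (0.26 ± 0.09) and the sarcosine dehydrogenase gene Sardh (0.38 ± 0.14) followed. In serine, glycine, folate and purine synthesis the 4 of 21 at an unadjusted p under 0.05 also lay above 0. They were the folate gene pug (0.30 ± 0.09), the serine synthesis genes CG6287 (0.21 ± 0.08) and CG11899 (0.24 ± 0.09) and the purine gene Pfas (0.24 ± 0.11). These 4 rose in Shu by 0.39 to 0.70, and in CS their differences were 0.18 to 0.47, of which that of CG6287 did not pass the test. The list median was 0.03, and without Shu_50 replicate 3 it was -0.02.

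Immune genes had interactions of both signs. At an unadjusted p under 0.05, those below 0 came from both the Imd pathway, which answers bacterial peptidoglycan, and the Toll pathway, and those above 0 were Bomanins, short secreted peptides that Toll controls. DptB, a diptericin, read 4668, 2172 and 1460 in Shu_0 and 1137, 434 and 305 in Shu_50. In the wild type it read 667, 112 and 112 without lithium and 563, 226 and 65.3 with it. Every Shu_50 array lay below every Shu_0 array, while the wild type arrays overlapped. Over all probe sets the Shu arrays stood clear, in either direction, in 15.8%. The genotype difference was 3.54 without lithium (limma adjusted p = 0.0103) and 1.35 with it, which was not called (adjusted p = 0.475). The interaction was -2.19 ± 0.99 (limma unadjusted p = 0.0418), with an interval from -4.30 to -0.09. PGRP-SB1, an amidase that cuts peptidoglycan, read 2831, 1887 and 1465 in Shu_0 and 1558, 723 and 752 in Shu_50, beside 489 to 1108 in the wild type, an interaction of -0.96 ± 0.44. AttD, an attacin, had group means of 2.03 in CS_0, 12.3 in CS_50, 23.5 in Shu_0 and 20.5 in Shu_50 and an interaction of -1.26 ± 0.51. Its CS_0 arrays lie below the brightness filter of 11.5 and it was tested through its brighter groups, so the size is not well determined. Here the untreated wild type was the low group, whereas in DptB the untreated mutant was the high one.

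Further members below 0 were imd, the adaptor that names the pathway (-0.43 ± 0.20), the receptor-family gene PGRP-LA (-0.22 ± 0.10) and, of the Toll side, the protease gene grass (-0.34 ± 0.12) and the adaptor tub (-0.26 ± 0.10). In imd the Shu_0 arrays read 59.6 to 63.8, above all 9 others at 34.5 to 55.2. The Bomanin BomS2 read 8629, 8894 and 9388 in CS_0 and 7497, 7029 and 6638 in CS_50, and 7174 to 8252 and 7182 to 7785 in the mutant. It fell in the wild type (-0.35, adjusted p = 0.012) and stood at -0.04 in the mutant, an interaction of 0.31 ± 0.10. BomS6 (0.31 ± 0.09) and BomBc2 (0.27 ± 0.11) had like values. In all, 3 of 16 antimicrobial peptide genes lay above and 2 below 0 at an unadjusted p under 0.05, and 5 of 26 recognition and signalling genes lay below and 0 above. Replicate 1 was the highest array of its group for DptB and for PGRP-SB1 in each of the 4 groups, and the cause was not tested.

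Most genes of 2 detoxification families and of the proteasome lay below 0. Of 30 glutathione transferase genes 22 lay below 0, with a median of -0.08 and 0 at an unadjusted p under 0.05. Without CS_0 replicate 3 and Shu_0 replicate 1 the median was 0.01. Of 20 UDP-glycosyltransferase genes 14 lay below 0, with a median of -0.08. Of 64 cytochrome P450 genes 32 lay on each side. Of 26 proteasome genes 21 lay below 0, with a median of -0.06 that stayed below 0 under every alternative (-0.08 to -0.03). The catalytic subunit gene Prosbeta5 read 646, 713 and 609 in CS_0 and 699 to 787 in the 9 other arrays, an interaction of -0.21 ± 0.09. Oxidative phosphorylation had a median of -0.03 over 54 genes. The 31 cytosolic ribosomal protein genes had a median of 0.08 that was -0.03 under quantile normalization, so their sign depended on the scaling.

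MtnD, a metallothionein that binds metal ions, rose with lithium in the mutant. It read 282, 386 and 256 in CS_0 and 438, 441 and 387 in CS_50. It read 200, 212 and 510 in Shu_0 and 554, 802 and 1350 in Shu_50. Replicate 3 was the highest array in both mutant groups. The lithium difference was 0.47 in CS, which did not pass the test, and 1.57 in Shu, which did (adjusted p = 0.0079), and the interaction was 1.11 ± 0.42 (limma adjusted p = 0.705). Sesn, a stress-induced regulator of growth, read 378, 533 and 416 in Shu_0 and 568 to 682 in the 9 other arrays, an interaction of 0.41 ± 0.13. The untreated mutant was its low group, and lithium raised it there by 0.52 (adjusted p = 0.0053) to the wild type level.

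For the larger marker lists of head cell types the median interaction was 0.03 for 11 neuron markers, 0.08 for 12 photoreceptor markers, -0.02 for 11 glia markers, 0.05 for 11 fat body markers and 0.03 for 11 hemocyte markers. Under quantile normalization the photoreceptor and fat body medians were -0.01 and -0.09, so those signs depended on the scaling. Among neuron markers the synaptic genes cpx (0.43 ± 0.20) and Rab3 (0.24 ± 0.09) had unadjusted p-values under 0.05, and both read highest in CS_0 replicate 3, at 8078 and 1964. A second cpx probe set gave -0.19 ± 0.10. The summed neuron signal was 21925 in that array and 15429 to 18905 in the other 11.

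**Figure D5:**
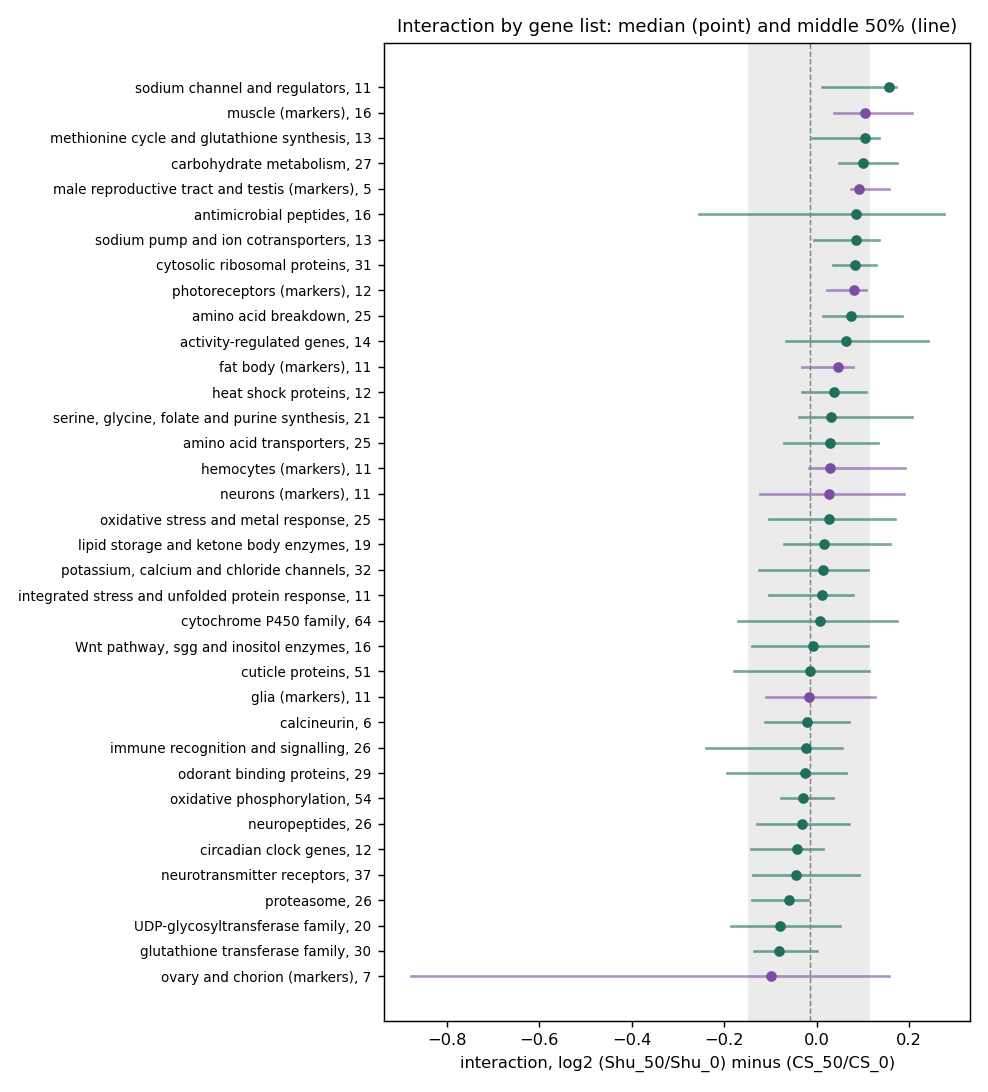
Median interaction (points) and middle 50% of the members (lines), in log2 units, for the 36 lists with at least 5 tested genes, pathway and family lists in green and cell type markers in purple, with the number of genes after each name. The grey band is the middle 50% of all probe sets, from -0.15 to 0.11, and the sodium channel list has the highest median, at 0.16.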

How the data were processed

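Whole head RNA was hybridised to 12 one-colour Affymetrix arrays, per the labels. The deposited values are probe set intensities, 1 per array; the software that summarised probes is not given in the sources used here, and each array has the same 2% trimmed mean (150.005). Of 18952 probe sets, 183 controls were left out. Intensities became log2(signal + 6.26), the offset being the 25th percentile, and 11261 probe sets with a mean over the 40th percentile (signal 11.5) were tested, of which 9613 name 1 gene, 275 several and 1373 none. A group-means model was fitted in limma 3.58.1 (R 4.3.3) with an intensity trend, 8 residual degrees of freedom and Benjamini-Hochberg adjustment; the scripts were tested on simulated data. Precision is limited by 3 arrays per group. Gene names and coordinates are of genome release 6. One CS_50 array (replicate 2) has a description that numbers it 1, and titles were used. Replicate numbers were not taken to pair arrays, since deviations of same-numbered arrays correlated at -0.06 to 0.09 and the labels name no shared source. No array duplicated another. The contrast and gene lists were chosen with earlier results of these data known. Genes were named by rule: para and List, the 24 of lowest interaction p, those of lowest p or largest size among lithium calls (10 each) and genotype calls (8), up to 3 per list at an unadjusted p under 0.05, and calls of opposite sign. Outside it, tipE, up, Pepck1, Tpi, Sardh, Pfas, DptB, AttD, imd and PGRP-LA were chosen after their values were seen. The alternatives tried were quantile normalization, other offsets and filters, no or robust trend, array weights, a replicate block and left-out arrays. No sequences are shown.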

Additional observations from a re-analysis of the deposited data

Results flagged for a closer look

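Probe set 1634590_at was singled out because the test of the difference itself found the lithium response to differ between the genotypes, with an interaction of 2.66 (limma adjusted p = 0.0416). Its signal fell from 18.3 to 45.0 without lithium to 7.78 to 9.10 with it in the wild type. In the mutant it rose from 6.77 to 11.2 to 25.1 to 33.7.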

How the results depend on the processing

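Each result was recomputed under 22 alternatives. By limma, the interaction had 0 called probe sets under quantile normalization, with no filter, with the filter at the 60th percentile and with no intensity trend, and 2 with a robust trend, array weights or the replicate block. The second call was CG8323 with the robust trend (adjusted p = 0.0392) and with weights (0.0306), and PGRP-SB1 under the block (0.0214). Same-numbered arrays were not taken as pairs, since their deviations correlated at under 0.1, although 7 of 12 arrays correlated best with their own number, a hint from the data and not from the design. Leaving out 1 array gave 0 or 1 call, and the unadjusted p was under 0.05 for 579 to 890 probe sets. Probe set 1634590_at kept its direction but lost its call at 2.66 under quantile normalization, no filter and no trend and at 2.62 without CS_0 replicate 3 and Shu_0 replicate 1, and ranged from 2.47 to 3.00 with 1 array left out. CG8323 was also called without CS_0 replicate 3 or both of those arrays, Arc1 without CS_50 replicate 3, and a probe set that names no gene (-1.31, adjusted p = 0.0209) without CS_50 replicate 1. With no trend the calls were 223 for lithium averaged, 329 for genotype averaged, 44 for lithium in CS and 91 in Shu, and without both arrays they were 294, 332, 89 and 139. With no filter lithium in CS had 118. With 1 array left out the ranges were 313 to 531 (lithium averaged), 527 to 1067 (genotype averaged), 76 (without CS_50 replicate 3) to 229 (lithium in CS) and 128 (without Shu_0 replicate 1) to 238 (lithium in Shu). The share of genotype differences smaller on lithium was 74.8% under quantile normalization, 64.2% without both arrays and 65.1% to 80.6% with 1 left out. The share of lithium rises larger in Shu was 48.2% to 64.8% with 1 array left out, so which genotype had more of the larger rises was not settled. For falls it was 58.6% under quantile normalization, 62.8% with no trend and 40.1% to 60.2% with 1 array left out. An untreated group was farthest in 66.4% with no filter, 67.4% with no trend and 57.6% (without Shu_50 replicate 3, against 53.3% of all probe sets) to 78.5% with 1 array left out. That share counts the narrowing in another set of probe sets and is not a separate result. Nmdmc, near 0, changed sign under quantile normalization (-0.0079), no offset (-0.0038), array weights (-0.0058) and without both arrays (-0.087), and ran from -0.19 to 0.15 with 1 array left out. Over the named genes followed, without 1634590_at, 983 alternatives were run. Of these, 969 kept direction and side of the threshold, 5 gained a call and 9, all of Nmdmc, changed sign. For 1634590_at, 15 of 21 alternatives ended the call. The causes were not tested. With 3 arrays per group, the 95% interval of the median probe set reached 0.356 (log2) to either side. Estimates smaller than that were not told from 0 there even before adjustment. A call after adjustment needed more, as CG8323 at -0.87 ± 0.14 was not called in the main fit.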
